A study of Mus musculus with 12 samples.

Results

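The purinergic and adenosine receptors of mast cells were examined in gene expression arrays of bone marrow-derived mast cells from C57BL/6 mice. The set was 10 genes: the P2X channel genes P2rx1, P2rx4 and P2rx7, the P2Y receptor genes P2ry1, P2ry2, P2ry13 and P2ry14, and the adenosine receptor genes Adora2a, Adora2b and Adora3. Every probe set that the annotation gave to one of these symbols was taken, which found 15 of the 45101 probe sets on the array, for 8 of the 10 genes. Adora2a and Adora2b had no probe set under their names in the annotation used and were not analysed here. The 12 arrays fell into 2 groups of 6. In the IL3 group the cells had been kept in interleukin 3 (IL3, 30 ng/ml) for 4 to 6 weeks. In the IL3+SCF group stem cell factor (SCF, the ligand of the receptor tyrosine kinase KIT, 100 ng/ml unless stated otherwise by the submitters) was added to the same IL3. The labels give a purity of over 99% by toluidine blue staining and by surface FceRIa and KIT, but not whether each replicate was its own culture or animal. The p-values therefore cover the spread among these arrays alone, and that spread may be technical. The study asked how SCF sets the state of mast cells, and the comparison here asks which receptors for extracellular nucleotides and adenosine differ in transcript level between the cultures.

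Cells release ATP and other nucleotides when they are stimulated or damaged. ATP opens the P2X receptors, which are cation channels, and P2Y receptors, which act through G proteins, respond to ATP, ADP, UTP or UDP-glucose. Enzymes at the cell surface strip the phosphates off to leave adenosine, which acts on its own family of G protein-coupled receptors. Mast cells carry members of all these families, and in mice the A3 adenosine receptor is known for potentiating degranulation.

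On each array a signal at or below the 40th percentile is called dim here; that level lay between 61.1 and 102 intensity units. A probe set was kept for testing when at least 6 arrays exceeded it, and 13 of the 15 receptor probe sets, for 6 genes, were kept. Changes are differences of mean log2(signal + 16), IL3+SCF minus IL3, tested with limma over all 27167 kept probe sets, and a call is a Benjamini-Hochberg adjusted p below 0.05. Of the 13, 4 rose, 3 fell and 6 did not pass. Among all kept probe sets 30.9% were called, 17.3% as risen and 13.6% as fallen. No receptor probe set had an estimated change of 2-fold. Of all kept probe sets 4.13% were called with at least that change, a share too small for its absence among 13 to stand out. The median change was 0.12 on the log2 scale over the 13 and 0.04 over all kept probe sets. The groups did not overlap for 5 of the 13, with 2 higher and 3 lower in IL3+SCF. Over all kept probe sets the groups did not overlap for 16.6%, with 8.94% higher and 7.69% lower. Taking only the brightest kept probe set of each of the 6 genes, 1 rose (P2ry1), 1 fell (P2rx7) and 4 did not pass, where 33% of all genes were called on the same basis.

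**Figure D1:**
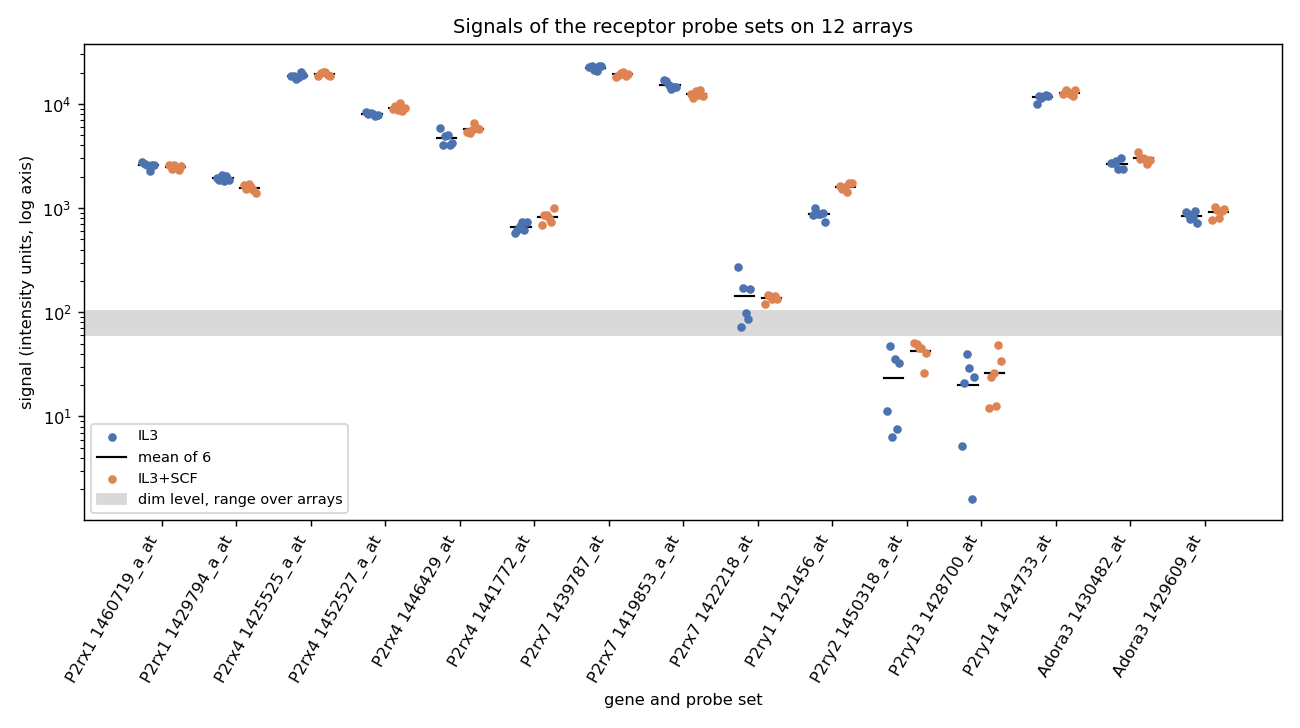
Signal of each of the 15 receptor probe sets (vertical axis, intensity units, log scale) on the 6 IL3 and 6 IL3+SCF arrays, a point per array and a bar at each group's mean; the grey band spans the dim level over the 12 arrays. P2ry1 separates upward with SCF, and P2ry2 and P2ry13 lie below the band.

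The 250 bases before the annotated start of the genes with a called probe set are printed to show which stretch of DNA lies before each of them. P2ry1 and P2rx4 hold the risen probe sets, and P2rx7 and P2rx1 hold the fallen ones. The sequences are from RefSeq on GRCm38.p6, where all 8 genes with a probe set were found, and each of the 4 printed is on the plus strand. P2ry1 is at chr3:61002535-61002784, P2rx4 at chr5:122707294-122707543, P2rx7 (the first of its 2 annotated starts) at chr5:122643677-122643926 and P2rx1 at chr11:72998895-72999144. Capitals mark matches on either strand to 5 motifs: GATAA (GATA factors), CANNTG (E box), TGANTCA (AP-1), TTCNNNGAA (STAT) and TGACGTCA (the cAMP response element).
P2ry1: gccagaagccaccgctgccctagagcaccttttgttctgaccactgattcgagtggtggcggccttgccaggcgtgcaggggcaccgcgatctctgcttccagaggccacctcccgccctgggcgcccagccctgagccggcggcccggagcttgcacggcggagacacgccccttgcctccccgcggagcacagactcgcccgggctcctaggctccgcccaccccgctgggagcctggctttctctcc
P2rx4: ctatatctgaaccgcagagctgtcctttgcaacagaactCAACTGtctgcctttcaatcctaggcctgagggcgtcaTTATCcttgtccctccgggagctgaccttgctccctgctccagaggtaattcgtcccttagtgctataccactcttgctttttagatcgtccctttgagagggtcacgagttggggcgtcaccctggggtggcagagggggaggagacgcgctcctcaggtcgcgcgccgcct
P2rx7: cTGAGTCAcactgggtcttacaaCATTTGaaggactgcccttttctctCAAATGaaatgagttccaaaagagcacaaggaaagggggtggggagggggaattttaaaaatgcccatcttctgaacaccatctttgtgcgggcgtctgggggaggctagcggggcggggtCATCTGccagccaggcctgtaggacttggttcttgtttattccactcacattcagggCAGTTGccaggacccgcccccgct
P2rx1: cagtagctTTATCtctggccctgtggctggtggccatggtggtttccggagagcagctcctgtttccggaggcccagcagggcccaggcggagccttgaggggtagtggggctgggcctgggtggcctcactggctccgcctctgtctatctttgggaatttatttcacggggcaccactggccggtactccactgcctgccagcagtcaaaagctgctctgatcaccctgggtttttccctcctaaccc
The P2ry1 stretch held 0 matches and was 70.8% G and C, where the median over 32851 stretches of the same length was 52.4%. The P2rx4 stretch held 1 GATAA and 1 CANNTG match, the P2rx7 stretch 4 CANNTG and 1 TGANTCA match, and the P2rx1 stretch 1 GATAA match. In these 4 stretches no match overlapped another. Of all stretches 22.6% held GATAA, 66.2% CANNTG, 6.75% TGANTCA, 7.02% TTCNNNGAA and 1.55% TGACGTCA. No binding was measured in this study, and a match describes letters only.

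P2ry1, the ADP receptor that couples to Gq and phospholipase C, showed the largest change of the set. Its single probe set, 1421456_at, had signals from 730.1 to 1013 with a median of 873 in IL3, and from 1424 to 1745 with a median of 1606 in IL3+SCF. All 6 IL3+SCF arrays lay above all 6 IL3 arrays. The group means were 874 ± 90.7 and 1608 ± 122 (SD, n = 6 each), and the log2 change was 0.87 ± 0.08 (SE, limma adjusted p = 7.58e-06), or 1.83-fold with a 95% interval of 1.62 to 2.06. The call held under every alternative run, with log2 changes between 0.81 and 0.91.

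The other P2Y genes did not pass or could not be tested. P2ry14, the receptor for UDP-glucose, which couples to Gi, was bright in both cultures. Its probe set 1424733_at ran from 9959 to 12171 in IL3 (median 11872) and from 11983 to 13683 in IL3+SCF (median 12774). The highest IL3 array lay above the lowest IL3+SCF array only, so 5 of the 6 IL3+SCF arrays exceeded all IL3 arrays. The log2 change was 0.16 ± 0.06 (SE, limma adjusted p = 0.0841), with a 95% interval of 0.02 to 0.30 before adjustment, and it passed under quantile normalization (adjusted p = 0.0432) and with trend and robust eBayes (0.0377). P2ry2, the Gq-coupled receptor for ATP and UTP, and P2ry13, a Gi-coupled ADP receptor, were dim on all 12 arrays. P2ry2 signals ran from 6.28 to 47.4 in IL3 and from 26.1 to 50.2 in IL3+SCF. P2ry13 signals ran from 1.63 to 39.8 and from 12.1 to 49.0. Neither gene's probe set rose above the dim level in either culture, and no fold is given. P2ry13 and P2ry14 lie in the same cluster on chromosome 3, with 1 protein-coding gene between them in the RefSeq table.

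P2rx7 encodes the channel that opens at high ATP and is known for activating the NLRP3 inflammasome. Both of its bright probe sets fell. Probe set 1439787_at ran from 20586 to 23294 in IL3 (median 22885) and from 18193 to 20144 in IL3+SCF (median 19053). Probe set 1419853_a_at ran from 13791 to 16836 in IL3 (median 14902) and from 11370 to 13544 in IL3+SCF (median 12266). In both, every IL3+SCF array lay below every IL3 array. The log2 changes were -0.22 ± 0.06 (SE, limma adjusted p = 0.00965) and -0.29 ± 0.07 (adjusted p = 0.00641), which are 0.859 and 0.818 of the IL3 level. With the replicate number added to the limma model as a block, 1439787_at was not called (adjusted p = 0.0692), whereas 1419853_a_at was. The third probe set, 1422218_at, was near the dim level, with signals of 72.5 to 269 in IL3 and 120 to 145 in IL3+SCF, and its log2 change of 0.06 ± 0.24 (adjusted p = 0.888) turned negative without IL3 replicate 2, 4 or 5 (-0.090, -0.02 and -0.05).

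P2rx4, the channel that opens at lower ATP than P2X7, has 4 kept probe sets, which span bright to moderate signals. The brightest, 1425525_a_at, ran from 17392 to 20454 in IL3 (median 18505) and from 18518 to 20379 in IL3+SCF (median 19367). These ranges overlap, and the log2 change was 0.06 ± 0.06 (limma adjusted p = 0.475, 95% interval -0.06 to 0.18). The other 3 probe sets rose. Probe set 1452527_a_at ran from 7662 to 8433 in IL3 (median 7924) and from 8459 to 10169.8 in IL3+SCF (median 8968), without overlap (log2 change 0.19 ± 0.06, adjusted p = 0.0222). Probe set 1446429_at ran from 3993 to 5855 (median 4598) and from 5284 to 6535 (median 5681), with the highest IL3 array, replicate 1, inside the IL3+SCF range (0.30 ± 0.10, adjusted p = 0.0338). Probe set 1441772_at ran from 574 to 739 (median 649) and from 686 to 1001 (median 834), with overlap (0.31 ± 0.10, adjusted p = 0.0284).
All 3 rises of P2rx4 rest on small margins. With each array centred on its median none passed (adjusted p = 0.220, 0.0934 and 0.0795 in the order given), and with no filter on dim probe sets none passed either (0.0688, 0.0744 and 0.0643). The call for 1446429_at was lost without IL3 replicate 2, 5 or 6 or without IL3+SCF replicate 3, 4, 5 or 6, where the largest adjusted p was 0.0757. The call for 1441772_at was lost without IL3 replicate 1 or 2 or without IL3+SCF replicate 2, 3 or 6 (largest adjusted p 0.0596). The number of risen receptor probe sets was 2 without IL3 replicate 2 or IL3+SCF replicate 3 or 6.

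P2rx4 and P2rx7 are neighbours on chromosome 5, with 0 protein-coding genes between them in the RefSeq table. The difference between their brightest probe sets was compared between the groups, a comparison chosen after the values were seen. The per-array log2 difference, P2rx4 minus P2rx7, had a mean of -0.26 ± 0.06 over the IL3 arrays and of 0.02 ± 0.04 over the IL3+SCF arrays (SD, n = 6 each). The 2 groups did not overlap, with -0.32 to -0.18 in IL3 and -0.06 to 0.08 in IL3+SCF. The shift was 0.28 (two-sided exact permutation p = 0.00216, which is the lowest value possible with these group sizes), and it lay between 0.26 and 0.32 with other pseudocounts and with arrays left out. A shared scaling of an array cancels in this difference. The shift is made of the fall of P2rx7 1439787_at (-0.22) and the change of P2rx4 1425525_a_at (0.06, not called) given above. Its p is therefore not separate support for either.

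P2rx1 encodes a channel that desensitises fast and is best known from platelets. Its probe set 1429794_a_at ran from 1828 to 2080.2 in IL3 (median 1920.0) and from 1388 to 1715 in IL3+SCF (median 1551), and every IL3+SCF array lay below every IL3 array. The log2 change was -0.31 ± 0.06 (SE, limma adjusted p = 0.00277), or 0.806 of the IL3 level. The brighter probe set, 1460719_a_at, ran from 2286 to 2790.2 (median 2601) and from 2343 to 2575 (median 2499). It did not pass, with a log2 change of -0.06 ± 0.06 (adjusted p = 0.484, 95% interval -0.19 to 0.07), although all 6 IL3+SCF arrays lay below the IL3 median. The probe sets of one gene were compared directly in 11 pairs, by an exact permutation test, two-sided, of their per-array log2 difference. The P2rx1 pair was the one that differed after adjustment, by 0.25 (exact p = 0.00216, Benjamini-Hochberg adjusted p = 0.0238), the difference having a mean of 0.41 ± 0.09 over the IL3 arrays and 0.66 ± 0.10 over the IL3+SCF arrays (SD, n = 6 each). Without IL3 replicates 4 and 5 the shift was 0.21, and without 3 and 6 it was 0.24, with an adjusted p of 0.0524 in both, the lowest that a single pair of 11 can reach with 4 against 6 arrays. Among P2rx4 pairs the largest shift was -0.25, for 1425525_a_at minus 1441772_at (exact p = 0.0455, adjusted p = 0.167).

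**Figure D2:**
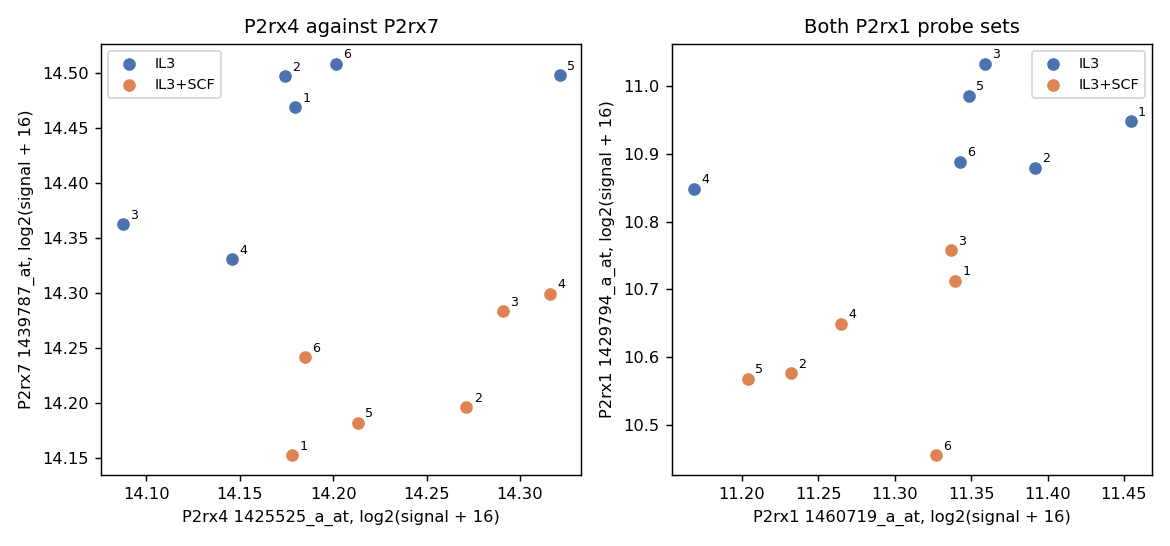
Left, log2(signal + 16) of the brightest P2rx4 probe set (horizontal) against the brightest P2rx7 probe set (vertical); right, the brighter against the dimmer P2rx1 probe set. Each point is an array, labelled with its replicate number, and in both panels the 6 IL3+SCF points lie below the 6 IL3 points on the vertical axis while the horizontal ranges overlap.

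Adora3, the Gi-coupled A3 receptor, did not pass with either probe set. Probe set 1430482_at ran from 2348 to 3043 in IL3 (median 2692) and from 2666 to 3472 in IL3+SCF (median 2951), with overlap. Probe set 1429609_at ran from 714 to 938 (median 844) and from 767 to 1016 (median 947), also with overlap. The log2 changes were 0.17 ± 0.08 (SE, limma adjusted p = 0.146, 95% interval -0.01 to 0.34) and 0.12 ± 0.09 (adjusted p = 0.365, 95% interval -0.08 to 0.31). The upper bounds of both intervals correspond to 1.27-fold and 1.24-fold.

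**Figure D3:**
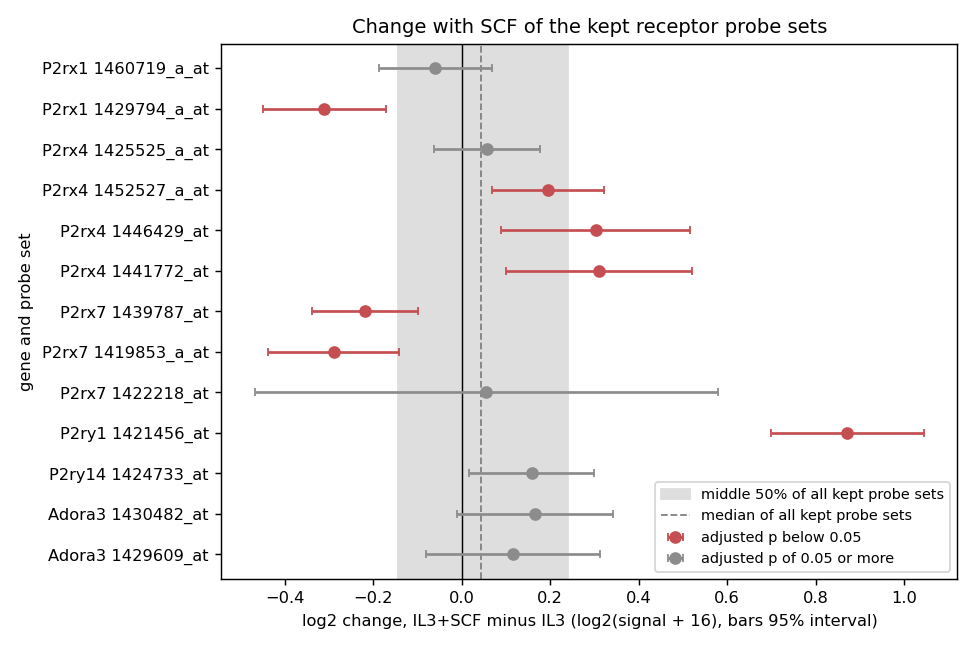
Log2 change with SCF (IL3+SCF minus IL3, log2(signal + 16)) of the 13 kept receptor probe sets with 95% intervals, red where the adjusted p was below 0.05; the grey band holds the middle 50% of all kept probe sets and the dashed line their median. P2ry1 stands at 0.87, and the P2X probe sets lie between -0.31 and 0.31.

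Median signals lay between 151 and 203 over the 12 arrays. The log2 ratio of the 3' to the 5' Gapdh control probe set averaged 0.66 ± 0.09 for IL3 arrays and 0.65 ± 0.07 for IL3+SCF arrays (SD, n = 6 each, exact permutation test, two-sided, p = 0.775). That of Actb averaged 0.81 ± 0.17 and 0.72 ± 0.09 (same test, exact p = 0.342), with IL3 replicate 5 highest at 1.14. The mean correlation of an array with the others of its group was 0.972 to 0.983 for IL3 and 0.984 to 0.988 for IL3+SCF, without overlap, so the IL3 arrays varied more among themselves. Of 10 mast cell markers, Kit, Fcer1a, Ms4a2, Fcer1g and Cpa3 among them, 0 were called by the brightest probe set. Of their 16 kept probe sets 3 rose, dimmer ones of Tpsb2 (log2 change 0.91), Hdc (0.78) and Ms4a2 (0.15). The summed signal of the 10 markers was 277663 to 321504 in IL3 and 283085 to 321185 in IL3+SCF.
Markers of other cells moved between the cultures beside the receptors. Of 10 monocyte and macrophage markers with a probe set, 7 were kept, of which 4 fell (Cx3cr1, Lyz1, Lyz2 and Fcgr1) and 1 rose (Cd68), and the summed signal was 13005 to 17810 in IL3 and 4229 to 5260.4 in IL3+SCF. Of that list Cx3cr1 ran from 3901 to 9025 in IL3 and from 317 to 519 in IL3+SCF. Adgre1 (means 472 and 461) and Ccr2 (320.0 and 261) were above the dim level on all 12 arrays and did not pass, whereas Cd14 and Mrc1 were dim on all 12 and the brightest Csf1r probe set on 10 of 12. The summed signal of 11 neutrophil markers was 306 to 7005 in IL3 and 278 to 393 in IL3+SCF, with S100a9 up to 3475 in IL3 and at most 51.0 in IL3+SCF. Of 9 megakaryocyte and platelet markers 4 were kept, with 1 risen (Vwf) and 1 fallen (Gp5). The summed signal of this list was 17113 to 22431 in IL3 and 16199 to 20165 in IL3+SCF. Itga2b (means 10022 and 8819) and Gp9 (380 and 272) exceeded the dim level on all 12 arrays and did not pass. Pf4 signals spanned 25.9 to 238 in IL3, with 3 arrays dim, and 28.2 to 81.8 in IL3+SCF, with all 6 dim. Ppbp, Gp6 and Treml1 stayed dim on all 12 arrays. Of the other lists, basophil markers had 2 risen and 1 fallen of 6 kept, eosinophil markers 1 risen and 0 fallen of 3, dendritic cell markers 0 called of 2, and B and T cell markers 0 risen and 2 fallen of 2. In bulk RNA fewer cells of a type and less RNA per cell cannot be told apart. The part of these other cells in the falls of P2rx7 and P2rx1, and of the pathway genes below, was not tested. With IL3 replicates 3 and 6, where S100a9 was highest, left out, P2ry1, P2rx1 1429794_a_at and both P2rx7 probe sets were still called. This cannot decide the part of other cells, since the monocyte markers that fell were higher on every IL3 array than on any IL3+SCF array.

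The genes that surround these receptors were read from lists of the same pathway, each gene by its brightest kept probe set. Over all 7 lists 16 genes rose and 9 fell, of the kept genes counted list by list below. Among all genes 17.5% rose and 15.5% fell on the same basis. Of 8 other purinergic and adenosine receptor genes with a probe set, 1 was kept. This was P2ry10, a receptor for lysophosphatidylserine despite its name, with signals of 722 to 1149 in IL3 and 193 to 457 in IL3+SCF and no overlap. It fell by 1.52 ± 0.19 on the log2 scale (limma adjusted p = 7.56e-05), a larger change than that of any receptor of the set.
Of 7 genes of nucleotide release 1 rose, Ano6, a lipid scramblase and ion channel linked to P2X7 responses (log2 change 0.31 ± 0.06, with 0.34 from its dimmer probe set), and 6 did not pass, among them the ATP-release channel gene Panx1 (-0.23, adjusted p = 0.29). The median of this list was 0.06, where that of all genes was 0.02. Of 7 ectonucleotidase genes 3 rose, 0 fell and 4 did not pass, with a list median of 0.22. Entpd3, which hydrolyses ATP and ADP at the surface, rose from 707 ± 139 to 1059 ± 55.5 (log2 change 0.60 ± 0.12), and Enpp5, of the pyrophosphatase and phosphodiesterase family, rose by 0.30 ± 0.07. Entpd1, the gene of CD39, did not pass with its brightest probe set (-0.12), while a dimmer one fell by 0.34 (adjusted p = 0.037). Nt5e, the gene of CD73, was near the dim level. Its brightest probe set had mean signals of 86.3 in IL3 and 86.2 in IL3+SCF and was dim on 2 arrays of each group.

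Of 10 genes of adenosine uptake and metabolism 3 rose, 2 fell and 5 did not pass, with a list median of 0.18. Ada, adenosine deaminase, fell from 2461 ± 213 to 1786 ± 122 (log2 change -0.46 ± 0.07, limma adjusted p = 0.000464), and Nt5c2, a cytosolic nucleotidase, fell by 0.77 ± 0.06, with all 4 of its kept probe sets fallen. Ampd3, an AMP deaminase, rose by 0.29 ± 0.06. Ahcy, which splits S-adenosylhomocysteine into adenosine and homocysteine, rose by 0.30 ± 0.09 (limma adjusted p = 0.026). That call was lost with median centring (0.104), with no filter (0.0606) and with the replicate block (0.0726). It was also lost without IL3 replicate 3, 4 or 6, without IL3+SCF replicate 2 or 4 (largest 0.0589), and without IL3 replicates 3 and 6 (0.126). Adk, adenosine kinase, did not pass with its brightest probe set (0.11), while its 4 dimmer probe sets rose by 0.34 to 1.32.
Of 8 genes of the list of phospholipase C beta and the IP3 receptors 4 rose, 0 fell and 4 did not pass, with a list median of 0.22. Phospholipase C beta and the IP3 receptors are the route from P2Y1 to calcium. The list also holds the PI3K gamma subunit genes Pik3cg and Pik3r6, which did not pass with their brightest probe sets. Of the 18 kept probe sets of this list 4 rose and 4 fell, the falls in dimmer probe sets of Itpr2, Plcb1 and Pik3cg. Itpr3, an IP3 receptor gene, was dim on 4 of the 6 IL3 arrays (mean 78.6 ± 21.6) and had a mean of 216 ± 27.2 in IL3+SCF. Its log2 change depends on the pseudocount, from 0.98 with 64 to 1.48 with 1, and it was called in both. Plcb4 rose by 0.80 ± 0.16. Of 17 genes of adenylyl cyclases and cAMP effectors 2 rose, 3 fell and 12 did not pass, with a list median of -0.01. Rapgef3, the cAMP sensor Epac1, rose from 340 ± 102 to 1108 ± 53.7 (log2 change 1.72 ± 0.18, adjusted p = 2.18e-05). Pde8a, a cAMP phosphodiesterase, rose by 1.59 ± 0.13, whereas the phosphodiesterase gene Pde7a and the regulatory subunit gene Prkar2a fell by 0.60 and 0.58.
Of 8 genes linked to P2X7 through the inflammasome 3 rose, 3 fell and 2 did not pass, with a list median of -0.09. Nlrp3, the sensor itself, fell from 3030 ± 475 to 1599 ± 123 (log2 change -0.90 ± 0.11, limma adjusted p = 4.79e-05), and Casp1, the protease it activates, fell by 0.53 ± 0.12 with overlap between the groups. Gsdmd, the pore protein that this protease cleaves, rose by 0.66 ± 0.12. Il18 was dim on all 6 IL3 arrays and above the dim level on all 6 IL3+SCF arrays, where it was at least 1.21-fold higher. The counts of these lists stand beside 17.5% risen and 15.5% fallen among all genes.

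**Figure D4:**
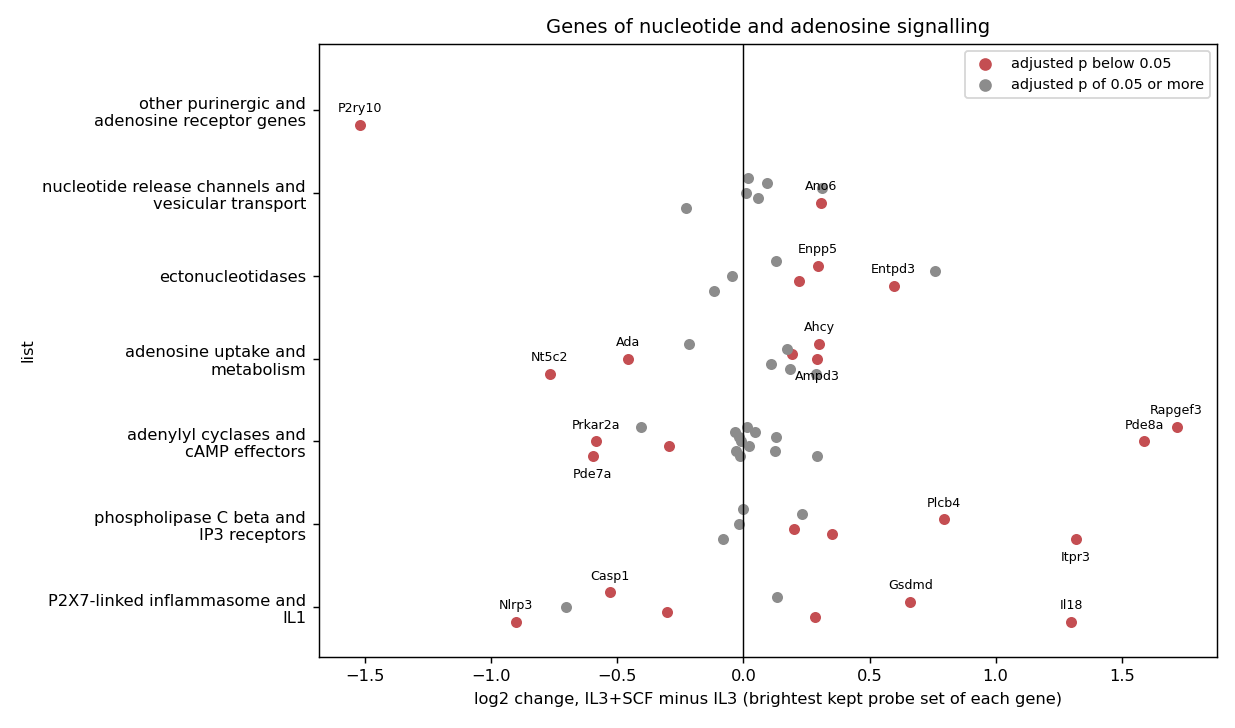
Log2 change with SCF of the genes of 7 pathway lists, a point per gene by its brightest kept probe set, red where the limma adjusted p was below 0.05; labels mark the genes with the largest called changes of each list. P2ry10 lies furthest to the left at -1.52 and Rapgef3 furthest to the right at 1.72.

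The genes whose array-to-array variation was most like that of each receptor were read from log2 values with each group's mean removed, over 12 arrays that share their scaling and handling, as a description. P2rx4 varied most like Eef1a1 and Ifitm1 (Pearson r 0.95 and 0.95) and P2ry1 most like Mis18a and Amigo1 (0.94 and 0.88). Adora3 varied most like Tuba1a and Rap1a (0.92 and 0.89), P2rx1 like Trib2 and Styk1 (0.85 and 0.85), P2rx7 like Prkcb and Rab27b (0.85 and 0.83) and P2ry14 like C1qbp and Pgam5 (0.84 and 0.84). These were the highest among the 5714 or 5715 genes searched for each receptor.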

How the data were processed

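The authors' deposited values are linear probe set intensities of 12 single-colour Affymetrix arrays. The labels' protocols give an RNA input of 50 ng, which was amplified, and the submitters' processing notes name GCOS 1.4. How background was corrected and to what target arrays were scaled is not given in the sources used here. The mean signal with 2% trimmed at each end was 1250.01 on all 12 arrays, so the deposited values already shared one scale. Because array medians differed by at most 0.39 (log2), under the 0.5 that would have called for quantile normalization, the deposited intensities were used unchanged. The 64 control probe sets were left out, and 27167 were kept. Probe sets were named from GEO's platform annotation (34958 with 1 symbol, 932 with several, 9211 with none), and the 15 receptor probe sets matched RefSeq by Entrez identifier.

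The 2 groups were tested against each other by limma 3.58.1 (R 4.3.3) with group as the single term, two-sided. Named pathway genes were at most 2 risen and 2 fallen per list, by size of change; any other was chosen after its values were seen. The receptors and lists were chosen with earlier results of these data known. The fit was tried on simulated data with few changed probe sets and the same spread in both groups. In these data 30.9% were called and the IL3 arrays varied more, so that run does not test the calls. Alternatives changed the scaling (quantile, median centring), the pseudocount (1 or 64), the filter (none, or the 60th percentile), the probe sets (brightest per gene) and the model (trend and robust eBayes, array weights, a replicate block), or left arrays out. Figures used matplotlib 3.10.9. The number of arrays limits the precision.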

Additional observations from a re-analysis of the deposited data

Results flagged for a closer look

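P2ry14 probe set 1424733_at on IL3 replicate 1 had a signal of 9959, below the next lowest IL3 array at 11363. Its gap was 0.657 of the group's range on the log2 scale, above Dixon's limit for 6 arrays. It was the single such array among 26 combinations of probe set and group, where chance flags about 1 in 20.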

How the results depend on the processing

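The calls for P2ry1, for P2rx1 1429794_a_at and for P2rx7 1419853_a_at held under every alternative in which the probe set was tested. The number of receptor probe sets called as fallen was 3 in each case with 1 array left out, and 1 with the brightest probe set per gene, where only 6 receptor probe sets are tested. The number risen, 4, ranged from 2 to 4 with 1 array left out. It was 1 with median centring, with no filter and with the brightest probe set per gene, and 2 with the replicate block, without IL3 replicates 4 and 5 and without 3 and 6. Over all probe sets the brightest per gene gave 2155 risen and 1895 fallen, since fewer are tested.

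With 1 array left out, the log2 change of P2rx4 1441772_at ran from 0.25 to 0.36, that of 1446429_at from 0.26 to 0.37, and that of P2rx7 1422218_at from -0.090 to 0.25, negative without IL3 replicate 2 (-0.090), 4 (-0.02) or 5 (-0.05). With median centring the P2rx4 changes were 0.17 for 1452527_a_at, 0.28 for 1446429_at and 0.29 for 1441772_at, and with no filter 0.19, 0.30 and 0.31, none called; the causes were not tested. Without IL3 replicates 4 and 5, 1452527_a_at had 0.18, 1446429_at 0.28 and P2rx7 1422218_at -0.17, and without 3 and 6 the first 2 had 0.19 and 0.29, none called. P2ry14 was called with quantile normalization (0.17) and with trend and robust eBayes (0.16).

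Whether the replicate numbers pair the arrays is not known. Deviations of same-numbered arrays correlated between -0.24 and 0.31, over 0.1 for 2 of 6, which does not settle it. With the number as a block, P2rx4 1446429_at (0.30, adjusted p = 0.0601) and 1452527_a_at (0.19, 0.0832) and P2rx7 1439787_at (-0.22, 0.0692) were not called, and 10 pathway genes rose. The number of probe set pairs that differed was 0 without IL3 replicates 4 and 5 and without 3 and 6, where 4 against 6 arrays cannot bring a single pair below 0.05, so this says nothing about stability.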
